A study of Mus musculus with 4 samples.

Results

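The 41 genes described here encode soluble hydrolases of the lysosome, the activators that assist them and proteins of the lysosomal membrane. They were taken as a fixed list of gene symbols, and all 41 were found among the 17574 genes of the series. The samples were tumours of SCC7, a mouse line labelled as a head and neck squamous carcinoma cell, grown under the skin on the backs of C3H/HeN mice labelled wild type. The treated group (anti-CD71) was given an antibody to the transferrin receptor CD71 on days 6 and 9, and tumours of this group and of the control group were taken on day 10 for bulk RNA sequencing, with 2 libraries in each group. The labels give no age or sex of the mice, no antibody dose and no substance given to the controls, and they do not say whether each library came from a different mouse, so p-values measure the spread between these libraries only.

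Lysosomes are acidic compartments in which proteins, glycans, lipids and nucleic acids are broken down to parts that the cell can use again. Most soluble hydrolases are made in the secretory pathway, tagged with mannose 6-phosphate and carried to the lysosome, where proteolysis often activates them. Macrophages, which digest what they engulf, are rich in many of these enzymes, while tumour and stromal cells use the same compartment for autophagy and receptor turnover. Iron that enters on transferrin through CD71 is released in the neighbouring endosome.

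Levels are TPM, transcript abundances on a common scale in each library, which are adjusted for transcript length and can be compared between genes. Both controls and anti-CD71 replicate 2 were complete, with 59881 transcripts each, whereas the list of anti-CD71 replicate 1 was partial and held 13586 of them. A transcript not listed for that library was treated as missing. Of the 41 genes, 8 had at least 90% of their TPM in transcripts listed for all 4 libraries and were compared over 4 libraries, 22 had no listed transcript, and the rest had a smaller share. All 41 passed the filter of 1 TPM in 2 libraries when anti-CD71 replicate 2 alone was set against both controls. That second comparison has 1 treated library, and its errors come from the spread between the controls alone. Its 3 libraries are also part of the first comparison, so a gene that fell in both is not an independent result. Depth is unknown for TPM.

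Markers of other cells differed between the libraries. The epithelial keratin genes Krt8 and Krt18 were abundant (1132.3 and 657.4 TPM in control replicate 1), but the squamous and basal markers Krt5 and Krt14 were at 0 and 0.09 TPM there, and Krt5 was at 31.4 TPM in anti-CD71 replicate 2. Of the 12 markers of differentiated epidermis and hair that were found, 8 were at 0 in both controls. Their summed level was 1.81 and 1.96 TPM in the controls and 243 TPM in anti-CD71 replicate 2, and over the 4 markers with a listed transcript it was 0 TPM in anti-CD71 replicate 1. The 20 macrophage markers, none at 0 in any complete library, summed to 8029.1 and 10122.5 TPM in the controls and 4309.6 TPM in anti-CD71 replicate 2. Over the 5 of them with transcripts listed for every library, the sums were 494.6 and 547.1 TPM in control tumours and 339.8 and 328.7 TPM in the treated tumours. Of 11 T and NK cell markers tested over 3 libraries, 5 fell (median log2 difference -1.11). None of the 3 that could be tested over 4 libraries was called (adjusted p between 0.0554 and 0.241). The listed transcripts of the T and NK cell markers summed to 139.8 and 121.7 TPM in control tumours and to 97.15 and 34.55 TPM in anti-CD71 replicates 1 and 2. Gzmb made up most of each sum, at 100.7 and 84.83 TPM in control tumours and 79.54 and 27.62 TPM in the treated tumours. The 9 neutrophil markers, 3 of them at 0 in both controls, summed to 17.05 and 11.29 TPM in the controls and 510 TPM in anti-CD71 replicate 2. S100a8 (265.5 TPM) and S100a9 (213 TPM) made up most of that last sum. Over the 4 neutrophil markers with listed transcripts the sums were 4.5 and 1.46 TPM in control tumours and 144.3 and 186.2 TPM in the treated tumours. Nearly all of the treated sums was S100a9 (142.4 and 183.5 TPM), so they do not describe the whole list. What part these cell contents had in the differences below was not tested.

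The regulatory sequence best known for this gene group is the CLEAR element, an extended E-box bound by TFEB, a transcription factor that drives lysosomal genes. Promoter windows from 250 bases before to 50 bases after the start site, from RefSeq on GRCm38.p6, were found for 36 of the 41 genes. The core TCACGTG was searched on both strands (CACGTGA is the same core read on the other strand, and the 2 can overlap in 1 site). It was present for 10 of the 36 genes (27.8%) and for 6.88% of the 9617 genes with a window among those tested over 3 libraries. The windows below show cores in capitals, 5′ to 3′ on the strand of the gene. They are given for the 3 genes called lower in anti-CD71 replicate 2 (Ctsa, Gaa, Lgmn). They are also given for the 5 that carry more than 1 site and were lower there without passing the test (Cln3, Mcoln1, Lamp1, Gla, Ctsd).
Ctsa, chr2:164833730-164833792, plus strand: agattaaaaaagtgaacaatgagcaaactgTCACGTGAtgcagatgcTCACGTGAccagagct
Gaa, chr11:119267792-119267858, plus strand: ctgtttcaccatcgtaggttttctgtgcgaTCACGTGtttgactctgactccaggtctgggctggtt
Lgmn, chr12:102439106-102439172, minus strand: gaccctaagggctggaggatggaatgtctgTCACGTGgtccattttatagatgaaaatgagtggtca
Cln3, chr7:126583321-126583415, minus strand: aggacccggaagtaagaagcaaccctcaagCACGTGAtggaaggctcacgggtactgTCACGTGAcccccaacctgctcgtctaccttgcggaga
Mcoln1, chr8:3500417-3500510, plus strand: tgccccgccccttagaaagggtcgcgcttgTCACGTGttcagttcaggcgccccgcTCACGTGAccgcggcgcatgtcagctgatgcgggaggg
Lamp1, chr8:13159069-13159180, plus strand: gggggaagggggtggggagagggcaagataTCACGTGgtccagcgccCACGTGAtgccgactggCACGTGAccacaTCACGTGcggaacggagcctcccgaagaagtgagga
Gla, chrX:134601163-134601255, minus strand: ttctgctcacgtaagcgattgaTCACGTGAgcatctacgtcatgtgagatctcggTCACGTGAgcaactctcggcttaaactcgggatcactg
Ctsd, chr7:142387889-142388077, minus strand: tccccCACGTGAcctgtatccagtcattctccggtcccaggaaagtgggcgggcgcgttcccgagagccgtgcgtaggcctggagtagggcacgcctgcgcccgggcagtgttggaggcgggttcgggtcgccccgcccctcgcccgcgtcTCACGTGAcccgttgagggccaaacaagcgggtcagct

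Lamp1 carried 4 sites between 62 and 16 bases before its start site, the most of any window in the list. The 10 genes with the core had a median log2 difference of -0.30 in anti-CD71 replicate 2 against the controls, and the 26 with a window but no core had a median of -0.30 as well. Of the 10, 3 were called lower and 0 higher, and of the 26, 5 were called lower and 2 higher. A match of letters is a description of the sequence and does not show binding.

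By level, the list was led by Ctsl, which encodes the cysteine protease cathepsin L, at 2264.2 and 2111.2 TPM in the controls and 3127.1 TPM in anti-CD71 replicate 2. Ctsb (cathepsin B) followed at 1893 and 1982.3 TPM in control tumours and 1598.6 TPM in the treated library. Cd63, a tetraspanin of late endosomes and exosomes, stood at 1362.1, 1328.2 and 1462.5 TPM in the same order. Psap, the precursor of the saposins, was at 1199.8, 1249.2 and 788.9 TPM, and Ctsd, an aspartic protease, at 761, 801 and 639.5 TPM. Psap stood above Ctsd in all 3 libraries, by less in the treated one. At the low end were Ctsf (1.81 and 2.19 TPM in control tumours, 1.64 TPM treated), Idua, the enzyme that removes iduronic acid from glycosaminoglycans (2.56, 2.35 and 1.49 TPM), and Ctsk (4.59, 3.5 and 16.67 TPM). Of the 41 genes, 17 had a mean of at least 100 TPM over the complete libraries.

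**Figure D1:**
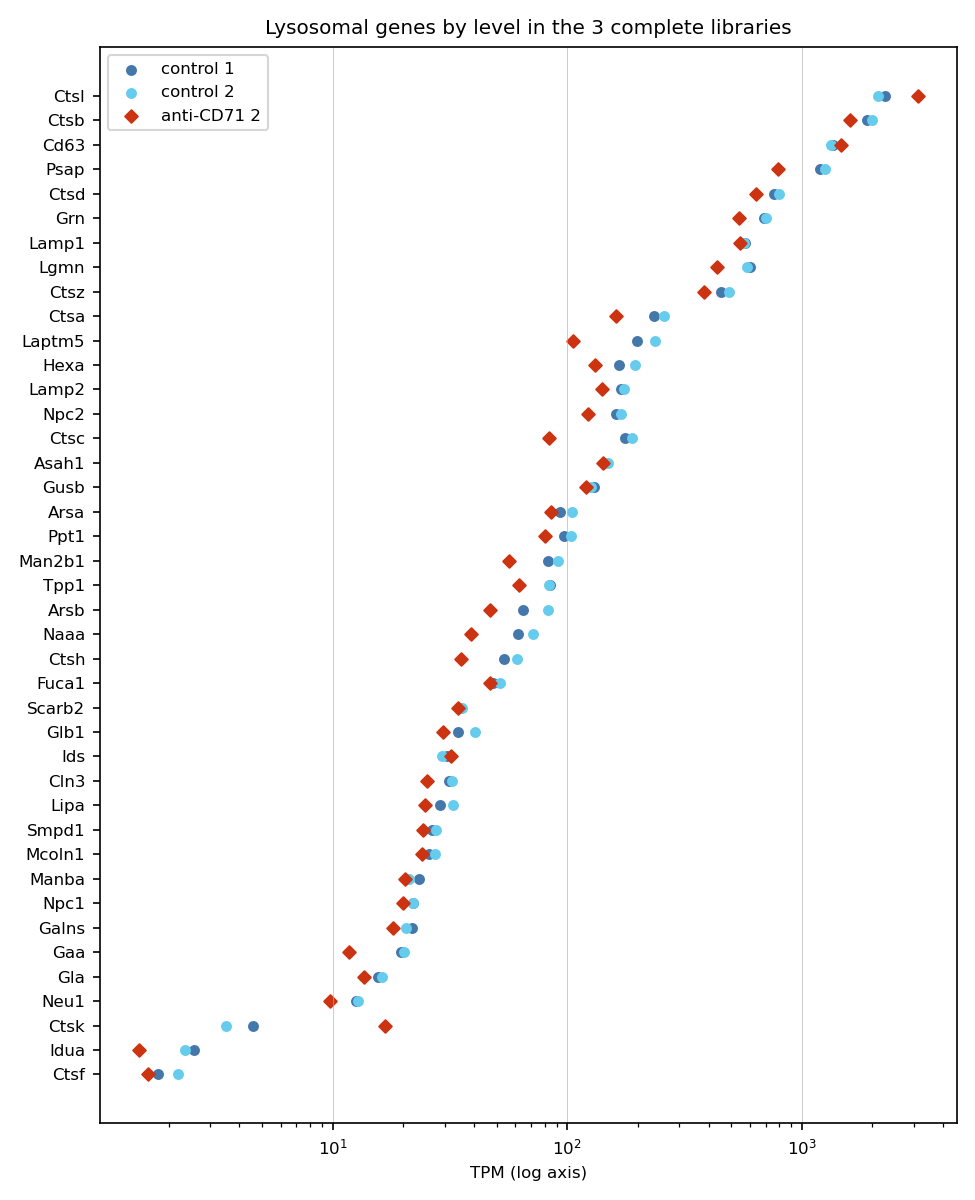
TPM of the 41 lysosomal genes (log axis, ordered by mean level) in both controls (circles) and anti-CD71 replicate 2 (diamonds). In 37 genes the diamond lies below both circles, and in 4 (Ctsl, Cd63, Ids, Ctsk) it lies above both.

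Over all 4 libraries, 4 of the 8 comparable genes fell and none rose. Psap, Naaa, Arsb and Lgmn were lower in both treated tumours than in either control. Among all 1563 genes tested over 4 libraries, 3.45% were called lower and 0.832% higher (limma, Benjamini-Hochberg adjusted p under 0.05). The 8 genes had a median log2 difference of -0.33, against -0.01 for all tested genes. In 7 of the 8 both treated values lay below both controls, which was true of 31.1% of tested genes, and in 1 both lay above, which was true of 28.3%.

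Psap, whose product is cut into the saposins that present sphingolipids to their hydrolases, stood at 1097.1 and 1139.3 TPM in the controls and at 723.1 and 721.7 TPM in anti-CD71 replicates 1 and 2, over transcripts that carry 91.4% of its TPM. The treated values nearly coincided, and both were far under the controls. Its log2 difference was -0.63 (SE 0.06, adjusted p = 0.022). Psap lies on chromosome 10 from 60277628 to 60302600 in GRCm38.p6.

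Naaa, an amidase that breaks down N-acylethanolamines such as palmitoylethanolamide, stood at 60.54 and 70.55 TPM in the controls and at 37.97 and 38.42 TPM in the treated tumours. Again the groups were apart and the treated values close to each other (log2 difference -0.76, SE 0.09, adjusted p = 0.0339). Naaa lies on chromosome 5 from 92257660 to 92278181.

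Arsb, the sulfatase that acts on dermatan and chondroitin sulfate, stood at 65.05 and 82.65 TPM in control tumours and at 41.29 and 46.89 TPM in treated tumours. The controls differed from each other more than the treated tumours did, and the groups did not overlap (log2 difference -0.72, SE 0.13, adjusted p = 0.0492). Arsb lies on chromosome 13 from 93771679 to 93943016.

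Lgmn encodes legumain, an asparaginyl endopeptidase that processes cathepsins and antigens. Its TPM were 601.9 and 582.9 in controls and 469.2 and 436.5 in treated tumours, with a gap between the groups wider than the spread within either (log2 difference -0.39, SE 0.06, adjusted p = 0.0422). Lgmn lies on chromosome 12 from 102394082 to 102439728.

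The other 4 genes compared over 4 libraries did not pass. Ctsk, which encodes the collagen-degrading cathepsin K, was the one with treated values above the controls, at 4.41 and 3.23 TPM in control tumours and 7.9 and 16.14 TPM in treated tumours (log2 difference 1.37, SE 0.32, adjusted p = 0.0759). The treated tumours differed from each other by far more than the controls did. Gla, the alpha-galactosidase, was at 15.65 and 16.16 TPM in control tumours and 14.56 and 13.66 TPM in treated tumours (-0.16, adjusted p = 0.277). Idua was at 2.39 and 2.23 TPM in control tumours and 1.99 and 1.49 TPM in treated tumours (-0.28, adjusted p = 0.315). Npc1, a membrane protein that exports cholesterol from the lysosome, was at 21.28 and 21.3 TPM in control tumours and 20.02 and 19.59 TPM in treated tumours (-0.10, adjusted p = 0.451). Each of these 3 had both treated values below both controls, by small margins for Gla and Npc1.

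For 4 further genes, transcripts listed in all 4 libraries carried between 21.4% and 43% of the gene's TPM. One Ctsb transcript stood at 431.3 and 412 TPM in control tumours and 313.5 and 326.3 TPM in treated tumours. The Lamp2 transcript that was listed, from a gene for a main glycoprotein of the lysosomal membrane, stood at 53.14 and 56.35 TPM in control tumours and 40.52 and 36.41 TPM in treated tumours. The listed transcript of Man2b1, the lysosomal alpha-mannosidase, stood at 21.51 and 26.88 TPM against 16.26 and 19.31 TPM. All of these treated values lay below both controls, as did those of Laptm5, described further on. The share of all partly listed genes with this pattern was not counted. In a fit over every gene with any listed transcript, none of these 4 passed (adjusted p = 0.116 for Ctsb, 0.117 for Lamp2, 0.255 for Man2b1 and 0.288 for Laptm5). Smaller shares were listed for Cln3 (6.89%), Ctsa (1.38%), Manba (1.36%), Ctsl (0.39%), Asah1 (0.12%) and Neu1 (0.06%), and the listed transcript of Ctsf was at 0 TPM in all 4 libraries, so these say little of the whole gene.

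**Figure D2:**
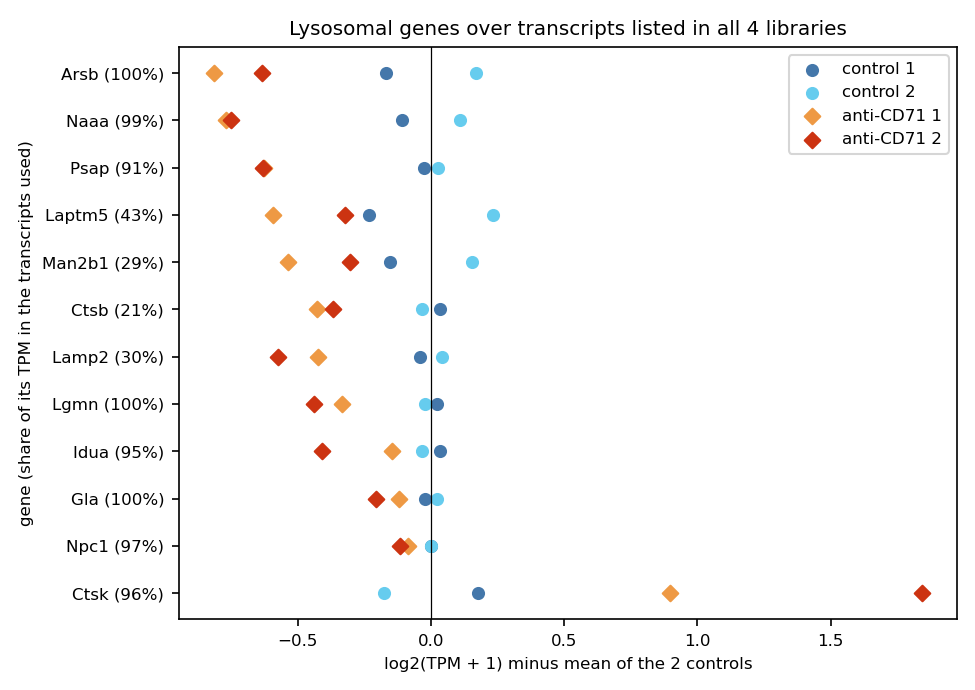
log2(TPM + 1) of 12 lysosomal genes over transcripts listed in all 4 libraries, relative to the mean of the controls, for controls (circles) and treated tumours (diamonds), with the share of the gene's TPM that these transcripts carry in brackets. Both diamonds lie left of both circles for every gene but Ctsk, where both lie to the right.

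None of the 8 passed without control replicate 1 (smallest adjusted p = 0.189, with Psap at -0.66 and Naaa at -0.87) or without control replicate 2 (smallest adjusted p = 0.274, with Psap at -0.60 and Naaa at -0.65). Without anti-CD71 replicate 2, the library with epidermal transcripts, Psap (-0.63) and Naaa (-0.77) were called lower, and Arsb (-0.81, adjusted p = 0.0613) and Lgmn (-0.34, adjusted p = 0.0555) were not. Without anti-CD71 replicate 1, Arsb was not called (-0.63, adjusted p = 0.0791) and Ctsk was called higher (1.84, adjusted p = 0.0139). None of the 8 passed with no filter on low values, with no intensity trend or in a fit over every gene with any listed transcript. Psap alone passed with a filter of 1 TPM in 1 library. Arsb did not pass with a pseudocount of 0.1 (adjusted p = 0.0503) or with a transcript share of 50% in place of 90% (adjusted p = 0.0542). Lgmn did not pass after each library was centred on its median (adjusted p = 0.0754).

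Across all 41 genes, anti-CD71 replicate 2 was below both controls in 37 and above both in 4, whereas 42.5% of the 11982 genes tested over 3 libraries were below both and 39.5% above both. Limma called 9 of the 41 lower and 2 higher, and 2.39% of all tested genes lower and 0.476% higher. The median log2 difference was -0.29, beside -0.01 for all tested genes. At an unadjusted p under 0.05, 23 of the 41 were lower and 2 higher, beside 14.0% and 10.7% of all tested genes. None of the 41 was called with no filter on low values, with a filter of 1 TPM in 1 library, or without an intensity trend in the variance prior, and 4 lower and 2 higher were called after each library was centred on its median. After centring, 35 of the 41 differences were below 0. With a pseudocount of 0.1, Ctsh, Man2b1 and Naaa were not called, and with one of 0.5, Ctsh and Man2b1 were not.

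**Figure D3:**
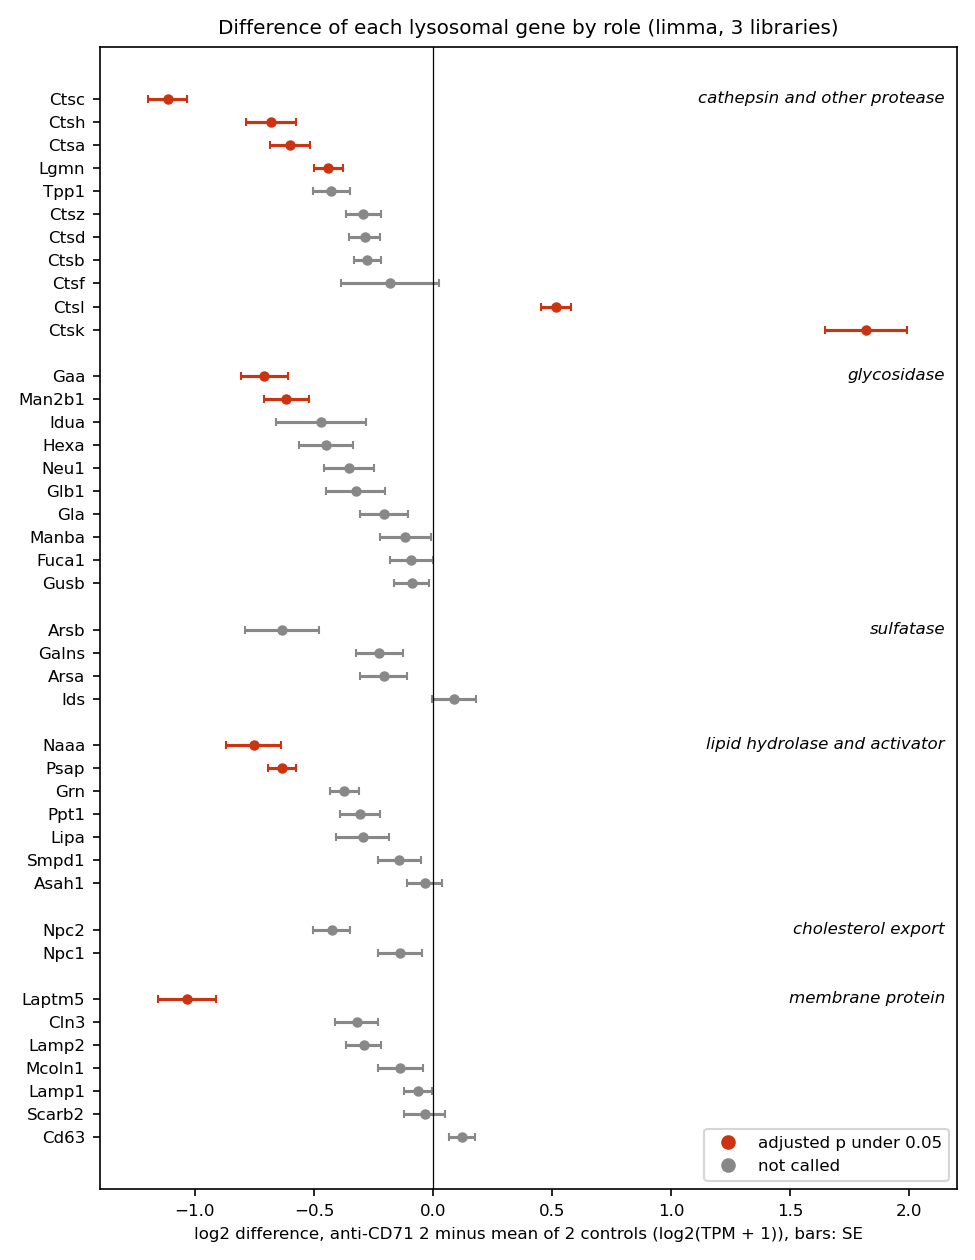
log2 difference of each of the 41 genes between anti-CD71 replicate 2 and the mean of both controls, with its standard error, by role. Called genes are red, and the proteases hold the lowest value (Ctsc, -1.11) and the highest (Ctsk, 1.82).

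Among the 11 proteases, 4 fell and 2 rose. Ctsc encodes cathepsin C, the dipeptidyl peptidase that activates granzymes and other serine proteases of immune cells. It fell from 176 and 189 TPM in control tumours to 83.66 TPM in anti-CD71 replicate 2, 45.8% of the control mean (log2 difference -1.11, SE 0.08, adjusted p = 0.0127). Ctsh, an aminopeptidase of the cathepsin family, fell from 53.91 and 60.84 TPM to 35.36 TPM (-0.68, SE 0.11, adjusted p = 0.0491). Ctsa, the protective protein that stabilises beta-galactosidase and neuraminidase, fell from 234.7 and 257.6 TPM to 161.9 TPM (-0.60, SE 0.09, adjusted p = 0.0426). Lgmn fell over 3 libraries too (-0.44, adjusted p = 0.0423). Ctsc lies on chromosome 7 from 88278024 to 88315861, Ctsh on chromosome 9 from 90054267 to 90076095 and Ctsa on chromosome 2 from 164832872 to 164841032. A predicted Ctsc transcript went from 49.56 and 52.9 TPM in control tumours to 4.64 TPM in anti-CD71 replicate 2. The curated Ctsc transcripts fell by less, from 97.02 and 101.85 TPM to 60.94 TPM and from 29.39 and 34.21 TPM to 18.08 TPM. No Ctsc transcript was listed for anti-CD71 replicate 1.

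The proteases that rose were Ctsl and Ctsk. Ctsl rose to 142.9% of its control mean (log2 difference 0.52, SE 0.06, adjusted p = 0.0318), from the levels given above. Ctsk rose from 4.59 and 3.5 TPM to 16.67 TPM (1.82, SE 0.17, adjusted p = 0.0249), a change that did not pass over 4 libraries. Since Ctsl is the most abundant gene of the list, the summed TPM of the 11 proteases was 6529 and 6562.6 in controls and 6547.1 in the treated library, although 9 of the 11 were lower. Nearly all of the Ctsl level was that of a predicted transcript, not listed for anti-CD71 replicate 1. Its curated transcript was at 7.91 and 7.04 TPM in control tumours and 8.68 and 14.65 TPM in anti-CD71 replicates 1 and 2. Predicted transcripts also held most of the TPM of Ctsb and Ctsa. Osteoclasts are a cell type known for cathepsin K. Their marker Ocstamp was at 0.32 and 0.25 TPM in control tumours and 0.28 TPM in anti-CD71 replicate 2. Dcstamp was at 0.3, 0.22 and 0.15 TPM in the same order, and Oscar at 0, 0 and 0.04 TPM. The 5 tested genes of the joint osteoclast and mast cell list were all mast cell markers. Anti-CD71 replicate 2 was above both controls in 4 of them and below both in 1. What part these cells or fibroblasts had in the Ctsk difference was not tested. Of 10 fibroblast markers, anti-CD71 replicate 2 was below both controls in 5 and above both in 0, and Pdgfra was called lower (-0.64, adjusted p = 0.0321). The remaining proteases did not pass: Tpp1, the tripeptidyl peptidase lost in a neuronal ceroid lipofuscinosis, was at 84.01 and 83.68 TPM in control tumours and 62.11 TPM treated (-0.43, adjusted p = 0.0621), Ctsb had a log2 difference of -0.28 (adjusted p = 0.0727), Ctsd one of -0.29 (adjusted p = 0.0832), Ctsz one of -0.29 and Ctsf one of -0.18.

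All 10 glycosidases were below both controls in anti-CD71 replicate 2, as were 42.5% of all tested genes. Gaa, the acid alpha-glucosidase that digests glycogen, fell from 19.62 and 20.05 TPM to 11.75 TPM (log2 difference -0.71, SE 0.10, adjusted p = 0.0404). Man2b1 fell from 82.83 and 91.54 TPM to 56.46 TPM (-0.62, SE 0.10, adjusted p = 0.049). The controls lay close together for Gaa, and the treated value was 59.2% of their mean. Hexa, a subunit of beta-hexosaminidase, was at 165.6 and 194.3 TPM in control tumours and 131 TPM treated (-0.45, adjusted p = 0.102). Differences were near 0 for Gusb, the beta-glucuronidase (-0.09, adjusted p = 0.488), Fuca1, the alpha-fucosidase (-0.09), and Manba, the beta-mannosidase (-0.12). Glb1 (-0.33), Neu1 (-0.35), Idua (-0.47) and Gla (-0.21) lay between and did not pass. Gaa lies on chromosome 11 from 119267963 to 119285458 and Man2b1 on chromosome 8 from 85082730 to 85098739.

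None of the 4 sulfatases passed over 3 libraries. Arsb came closest at 63.5% of its control mean (log2 difference -0.63, adjusted p = 0.0956), and Galns (-0.23), Arsa (-0.21) and Ids (0.09) followed. Ids, the iduronate sulfatase, was at 30.6 and 29.29 TPM in control tumours and 31.89 TPM in anti-CD71 replicate 2.

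The 7 genes grouped as lipid hydrolases and activators include Grn, whose product is not a lipid hydrolase. All 7 were below both controls in anti-CD71 replicate 2, as were 42.5% of all tested genes. Psap fell over its whole TPM as well, to 64.4% of the control mean (log2 difference -0.63, SE 0.06, adjusted p = 0.0247), and Naaa to 58.5% (-0.75, SE 0.11, adjusted p = 0.0475). Grn, the precursor of the granulins, was at 686.6 and 706.6 TPM in control tumours and 537.7 TPM treated and just missed the threshold (-0.37, adjusted p = 0.0511). Ppt1, the palmitoyl-protein thioesterase, had a log2 difference of -0.31, Lipa, the acid lipase for cholesteryl esters, one of -0.30, and Smpd1, the acid sphingomyelinase, one of -0.14. Asah1, the acid ceramidase, was at 142.9 and 148.9 TPM in control tumours and 142.2 TPM treated (-0.04, adjusted p = 0.796). Nearly all of this level is that of a row for a copy of its curated transcript at a second locus in RefSeq. No row for the first locus was given for any library. Of the pair that hands cholesterol out of the lysosome, the soluble Npc2 was at 161.3 and 169.6 TPM in control tumours and 122.8 TPM treated (-0.43, adjusted p = 0.0604), and the membrane protein Npc1 differed by -0.14.

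Among the 7 membrane proteins, 1 fell, Laptm5, which is expressed in leukocytes and promotes degradation of antigen receptors. It fell from 198.3 and 237.5 TPM to 105.4 TPM, 48.4% of the control mean (log2 difference -1.03, SE 0.12, adjusted p = 0.0316). RefSeq places its transcript at 2 loci. The copy at the first stood at 102.4 and 106.7 TPM in control tumours and 31.97 TPM in anti-CD71 replicate 2, and the copy at the second at 70.02 and 97 TPM in control tumours and at 54.33 and 65.76 TPM in the treated tumours. Both copies were lower in the treated library, the first by far more, and without the second-locus copy the log2 difference was -1.73 (adjusted p = 0.00546). Laptm5 lies on chromosome 4 from 130912890 to 130936148.

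The other 6 membrane genes did not pass. Lamp1 was at 571.3 and 566 TPM in control tumours and 543.8 TPM in anti-CD71 replicate 2 (log2 difference -0.06, adjusted p = 0.539), and Scarb2, the receptor that carries glucocerebrosidase to the lysosome, at 34.75, 35.48 and 34.22 TPM (-0.04). Lamp2 was at 168.8, 175 and 140.3 TPM (-0.29, adjusted p = 0.102). Cd63 had a treated value above both controls and did not pass (0.12, adjusted p = 0.245). Mcoln1, a channel that releases calcium and iron from the lysosome, differed by -0.14, and Cln3 by -0.32. The summed TPM of the 7 membrane genes in the treated library was 97.4% of the control mean. That of the 7 genes grouped as lipid hydrolases and activators was 71.5%, and Psap and Grn made up most of it.

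Further genes of the compartment had medians nearer 0. Of 36 further lysosomal hydrolase genes tested over 3 libraries, 2 fell: Ctss, the cathepsin of antigen-presenting cells, from 999.7 and 1058.1 TPM to 530 TPM (log2 difference -0.96, adjusted p = 0.0105), and Gm2a, the GM2 activator (-0.62, adjusted p = 0.0438). Their median was -0.22, with 29 of 36 below 0. Of 30 further membrane protein and transporter genes, 4 fell, namely Cd68, a macrophage glycoprotein of the lysosome (-0.79), Slc15a3, a peptide transporter (-0.81), the nucleoside transporter gene Slc29a3 (-0.66) and Abca2 (-0.66), and the median was -0.18. Over 4 libraries Slc15a3 did not pass (-0.51, adjusted p = 0.172). None of 18 V-ATPase subunit genes passed (median -0.12), and Atp6v0e2 (-0.71) and Atp6v0d1 (-0.37) had the largest differences.

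None of 18 genes for mannose 6-phosphate tagging and sorting passed over 3 libraries (median -0.07). Over 4 libraries Igf2r, the large mannose 6-phosphate receptor, fell from 25.46 and 28.33 TPM to 17.94 and 17.81 TPM (log2 difference -0.56, adjusted p = 0.0388). None of 20 genes of the TFEB family and of mTORC1 control at the lysosome passed (median -0.10), with Tfe3 at -0.41 and Zkscan3 at -0.33, and Tfeb itself stood at 7.04 and 7.34 TPM in control tumours and 6.65 TPM treated. None of 24 autophagy genes passed (median -0.02), Tecpr1 (-0.47) and Sqstm1 (-0.29) having the largest differences. Among 7 tested cathepsin inhibitor genes, Cst7, which encodes cystatin F of immune cells and restrains cathepsin C, fell from 7.37 and 7.11 TPM to 1.86 TPM (-1.53, adjusted p = 0.0242), and the median of the 7 was -0.20. None of 8 genes for iron release from endosomes and lysosomes passed (median -0.12), with Slc11a1, a metal transporter of phagocytes, at -0.81 (adjusted p = 0.0619) and Tfrc at -0.45.

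Macrophage markers were lower as well. Of 20 tested over 3 libraries, 13 fell and 1 rose, with a median log2 difference of -0.87. Csf1r, a receptor that macrophages need, stood at 125.8 and 156.9 TPM in control tumours and at 69.38 and 66.83 TPM in anti-CD71 replicates 1 and 2 (-1.03, adjusted p = 0.032 over 4 libraries), below both controls in both tumours, as Psap and Naaa were. Tyrobp (-0.90, adjusted p = 0.0285) and Msr1 (-0.69, adjusted p = 0.0275) fell in replicate 2, and Cd163 rose (1.26). The summed TPM of the macrophage markers in that library was 47.5% of the control mean, against 92.5% for the 41 lysosomal genes and 81.5% for the 40 without Ctsl. Transcripts listed for every library came from 19 of the 41 genes, and held 0.39% of the TPM of Ctsl and none of Cd63. Over these transcripts the sums were 2457.6 and 2523.5 TPM in control tumours and 1755.3 and 1762.1 TPM in the treated tumours. Psap, Lgmn and the listed Ctsb transcript made up most of each sum, so the sums do not describe the whole list. In bulk tumours, fewer cells of a type and less RNA per cell cannot be told apart.

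**Figure D4:**
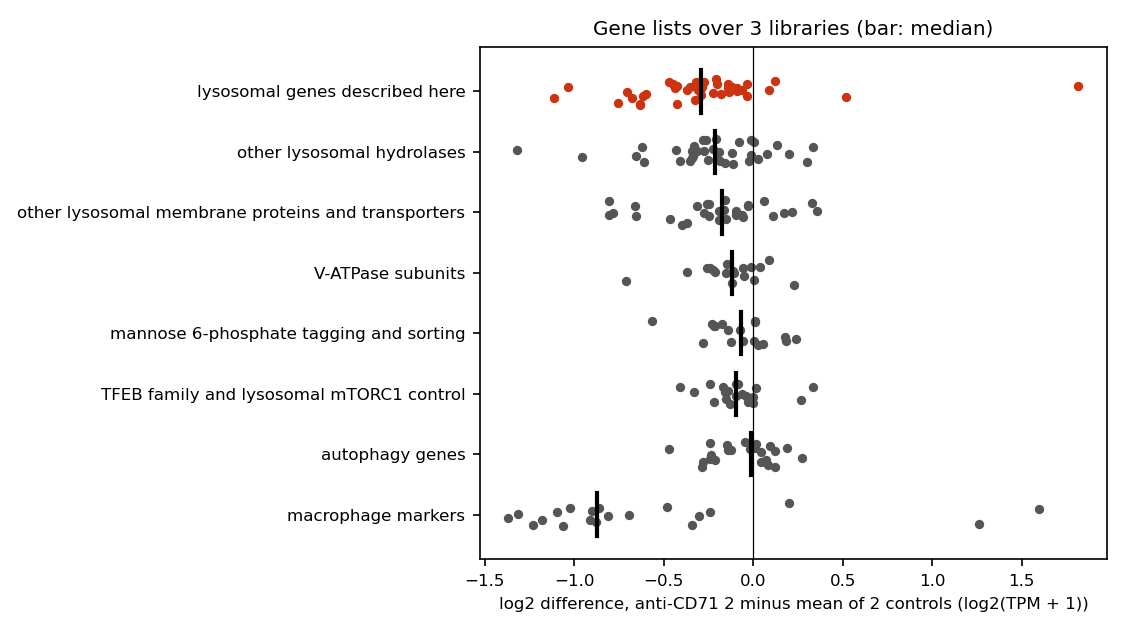
log2 difference of each tested gene between anti-CD71 replicate 2 and the mean of both controls for the 41 lysosomal genes (red) and 7 other lists (grey), with the median as a bar. Medians run from -0.02 for autophagy genes to -0.87 for macrophage markers, with the lysosomal genes at -0.29.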

How the data were processed

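Bulk RNA sequencing of 2 control and 2 anti-CD71 tumours was used. RNA was extracted with TRIZOL and libraries were made by BGI, per the labels' protocols. The authors deposited TPM per RefSeq transcript. Per the submitters' processing notes, transcripts refer to GRCm38.p6. Which aligner and which program gave the TPM is not given in the sources used here. Read depth cannot be had from TPM. The file of anti-CD71 replicate 1 ended inside a line, which was dropped, leaving 22.7% of the transcripts.

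Of 59881 transcripts, 58425 were matched to symbols through a RefSeq table of the same build and their TPM were added per gene, second-locus copies (1744) included. Between 1.42% and 1.55% of the TPM had no symbol and was left out. Limma 3.58.1 in R 4.3.3 was run on log2(TPM + 1), with an intensity trend, on genes with at least 1 TPM in 2 libraries, and p-values were adjusted by Benjamini-Hochberg over all tested genes. The script was tested on simulated data with equal spread in every library and with changes larger than those of most called members. That test does not cover smaller changes or libraries that differ in cell content. Fold changes on this scale understate the change of low genes. Over 4 libraries a gene was used if 90% or more of its TPM lay in transcripts that every file lists. Members and lists were chosen with earlier results of these data known. Lists are described by counts and medians. All members are accounted for, with values by library for called members, those compared over 4 libraries, the 5 highest and the 3 lowest. From other lists up to 4 called genes by smallest adjusted p are named, or where none was called up to 2 with the largest differences. Tfeb, Csf1r, Krt5, Krt8, Krt14, Ocstamp, Dcstamp and Oscar are named outside this rule. Alternatives varied the pseudocount, filter, centring, trend, transcript share, libraries, replicate block and second-locus copies.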

Additional observations from a re-analysis of the deposited data

How the results depend on the processing

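Of the 41 genes, the count called over 3 libraries (11) became 0 with no filter, 0 with a filter of 1 TPM in 1 library, 0 with no trend and 6 with median centring. It was 11 without second-locus copies, an alternative chosen after seeing the data, where 40 of the 41 could be tested. The count over 4 libraries (4) became 0 with no filter, 1 with a filter of 1 TPM in 1 library, 0 with no trend and 0 with any listed transcript. Leaving out 1 library gave between 0 and 4 called genes. Over all genes, those called lower over 3 libraries (286) numbered 0 with no filter, 12 with 1 TPM in 1 library, 22 with no trend and 187 with median centring, and those called higher (57) numbered 0, 60, 13 and 38. Over 4 libraries those called lower (54) numbered 0, 7, 3 and 36 and those called higher (13) numbered 1, 1, 1 and 21 under the same settings. At an unadjusted p under 0.05 limma gave 3401 genes over 3 libraries with no filter. The cause of these changes was not tested.

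The median log2 difference of the members over 3 libraries (-0.29) was -0.25 with median centring, and without 1 control it lay between -0.34 and -0.25. Over 4 libraries (-0.33) leaving out 1 library gave -0.42 to -0.24. Directions changed for Asah1 and Scarb2 only, each at 0.0056 with median centring over 3 libraries.

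The replicate number did not pair the libraries, with a correlation of same-numbered deviations of -0.01 over 1563 genes. With the replicate block 0 of the 8 genes were called (smallest adjusted p = 0.0743), and 1 gene lower and 2 higher over all. Read depth is unknown, so no limit for low genes such as Ctsf and Idua can be given.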
